A study of Rattus norvegicus with 2 samples.

Results

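The miR-23, miR-27 and miR-24 microRNAs (miRNAs) are made from 2 gene clusters, called here the a cluster (rno-miR-23a, rno-miR-27a and rno-miR-24 on the array) and the b cluster (rno-miR-23b, rno-miR-27b and again rno-miR-24). They were examined on 2 rat tongue miRNA arrays. The members were chosen by their names on the array, leaving out passenger strands, and they were put forward as a set with their values on these arrays already known. They are 5 of the 350 miRNAs on the array, and all 5 were measured on both arrays.

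The study compared tongue squamous cell carcinomas of rats with normal rat tongue. Male Sprague-Dawley rats, 6 to 7 weeks old at the start, received the carcinogen 4NQO (4-nitroquinoline 1-oxide) at 0.02 g/l, or distilled water alone, with 20 rats in each arm. Tissue was taken at the end of week 36, when tumours were collected from the 4NQO arm and normal tongue from the water arm. RNA came from 7 tumours and 7 normal samples, and the data are 2 arrays of 1 slide, here called by their labels the tumour array and the normal array. Whether RNA was pooled over animals is not stated in the labels. With 1 array per group there is no replicate and no test between groups, and the errors below come from the repeated spots of a probe. Both are bulk tissue RNA, so fewer cells of a type and less RNA per cell cannot be told apart. miR-21, raised in many carcinomas, gave 2.61% of all signal on the tumour array and 23.7% on the normal array, which goes against the labels as tumours are usually described, so each direction below depends on the labels being right.

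Each of the 2 clusters is transcribed as a single precursor that is cut into 3 hairpins, so its 3 miRNAs share their transcription and can then differ through processing and decay. miR-23 and miR-27 are abundant in blood vessel endothelium and act in vessel growth in mice, where they repress Sprouty2 and Sema6A. In mouse skeletal muscle miR-23a represses the atrophy ubiquitin ligases MuRF1 and atrogin-1, and miR-27b represses Pax3 in muscle progenitors. miR-24 is known in human cells as a repressor of cell cycle genes such as E2F2.

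The mature sequences show why the array's probes for the a and b copies are so alike. They are from RefSeq (build GRCr8), 5′ to 3′, with the seed (bases 2 to 8, which choose most targets) in capitals.

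miR-23a: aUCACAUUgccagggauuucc

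miR-23b: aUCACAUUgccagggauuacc

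miR-27a: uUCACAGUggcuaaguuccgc

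miR-27b: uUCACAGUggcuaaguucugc

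miR-24: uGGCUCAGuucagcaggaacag

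The a and b copies of miR-23 have 1 seed, and so have the copies of miR-27. Counted from the 5′ end, miR-23a and miR-23b differ by U19A alone, and miR-27a and miR-27b by C19U alone, both far outside the seed. The seeds of miR-27a and miR-23a differ at 1 of 7 bases (G7U), while the seed of miR-24 differs from that of miR-27a at all 7. Of the 350 array names 265 were matched to a RefSeq mature sequence that pairs with the probe, and 0 of the matched names other than the members shared a seed with a member.

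The a cluster lies on chromosome 19 of GRCr8, on the minus strand, with miR-23a at chr19:40859778-40859798, miR-27a at chr19:40859614-40859634 and a copy of miR-24 at chr19:40859481-40859502. Its 3 hairpins span 389 bases and overlap no other gene in the RefSeq table. The b cluster lies on chromosome 17, also on the minus strand, with miR-23b at chr17:1819405-1819425, miR-27b at chr17:1819163-1819183 and the other copy of miR-24 at chr17:1818672-1818693. Its 3 hairpins span 814 bases within the annotated span of Aopep, the gene of aminopeptidase O. The hairpin of this copy of miR-24 also overlaps the span of Fancc, a Fanconi anaemia gene, and that of Mir3074. Both copies of miR-24 yield the same mature RNA, so its signal cannot be divided between the clusters.

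Each member was read by 2 probes, which pair with the 3′ end of the miRNA and differ in length by 1 base. The probes of miR-27a have 16 and 17 bases, and those of each other member 17 and 18. The longer probes of the copies that are told apart are shown from the array design, 5′ to 3′, with the base that differs between the copies in capitals.

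miR-23a probe: ggAaatccctggcaatgt

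miR-23b probe: ggTaatccctggcaatgt

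miR-27a probe: gcGgaacttagccactg

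miR-27b probe: gcAgaacttagccactgt

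Over the 18 bases that can be aligned, the longer probes of miR-23a and miR-23b differ at 1, and over 17 bases so do those of miR-27a and miR-27b. In each case the differing base is the third from the end of the probe. Signal of either copy can therefore reach the probes of the other, which would draw the ratios of the 2 copies together. How much of it did was not tested.

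On both arrays every member spot that entered the means was well above background. Of the 938 probes 140 were detected on both arrays, and these gave 85 miRNAs measured on both. Spot signals, in intensity units, were divided by the 75th percentile of those probes on each array, 525.6 on the tumour array and 277.5 on the normal array, so that a scaled level of 1 is that percentile. These factors differ 1.89-fold, or by 0.92 on the log2 scale, so without scaling each log2 ratio would be 0.92 higher. A difference between the ratios of 2 members does not depend on such a factor.

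The a and b copies of miR-23 had nearly the same scaled level on the 2 arrays. The longer probe of miR-23a had spots of 2191 to 2424 intensity units (median 2334) on the tumour array, and of 1049 to 1241 (median 1161) on the normal array. After scaling these spots ran from 4.17 to 4.61 on the tumour array and from 3.78 to 4.47 on the normal array, so the arrays overlapped. Its shorter probe averaged 1.30 ± 0.03 on the tumour array (SD, n = 9 spots) and 1.24 ± 0.04 on the normal array (SD, n = 10 spots). Over both probes, the log2 ratio of miR-23a, labelled tumour over labelled normal, was 0.07 (spot SE 0.02), or 1.05-fold. Of its 19 pairs of spots at matched positions on the 2 arrays, 17 had a ratio above 0 and 2 below.

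miR-23b moved like miR-23a. Its longer probe had scaled spots of 2.82 to 3.04 on the tumour array and of 2.66 to 2.99 on the normal array, which overlap. The shorter probe averaged 1.21 ± 0.03 on the tumour array (SD, n = 10 spots) and 1.19 ± 0.01 on the normal array (SD, n = 9 spots). The log2 ratio of miR-23b was 0.05 (spot SE 0.01), or 1.03-fold. The ratio of miR-23a was 0.02 above that of miR-23b, with a spot SE of 0.02, and over the 4 ways of pairing their probes this difference ran from 0.001 to 0.04. With 1 differing base and 1 array per group, the copies of miR-23 were not distinguishable in their ratio.

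miR-27a had the lowest ratio of the 5. Its longer probe had spots of 1131 to 1237 intensity units (median 1159) on the tumour array and of 977 to 1102 (median 1060) on the normal array. After scaling, they ran from 2.15 to 2.35 on the tumour array and from 3.52 to 3.97 on the normal array, with no overlap. The shorter probe averaged 0.637 ± 0.029 on the tumour array (SD, n = 10 spots) and 1.15 ± 0.02 on the normal array (SD, n = 8 spots), again with no overlap. The log2 ratio was -0.80 (spot SE 0.02), so the scaled level was 1.75-fold lower on the tumour array, and all 17 matched spot pairs lay below 0. The direction rests on the scaling: without it miR-27a was at 0.12, close to level, while the other 4 members lay between 0.66 and 0.99.

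miR-27b, which has the seed of miR-27a, stood much closer to level after scaling. Without scaling miR-27a (0.12) was the closer. The longer probe of miR-27b had scaled spots of 1.41 to 1.53 on the tumour array and of 1.67 to 1.897 on the normal array. The shorter probe averaged 0.531 ± 0.028 on the tumour array (SD, n = 10 spots) and 0.629 ± 0.016 on the normal array (SD, n = 8 spots). Neither probe's spots overlapped between the arrays after scaling. The log2 ratio was -0.26 (spot SE 0.02), or 1.19-fold lower on the tumour array, and without scaling it was 0.66.

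The ratios of the 2 copies of miR-27 were further apart than their spot errors, unlike those of miR-23. The ratio of miR-27a lay -0.55 from that of miR-27b (spot SE 0.02), a 1.46-fold gap that ran from -0.60 to -0.49 over the 4 pairings of their probes. The 2 probes of miR-27a differed from each other by 0.08 and those of miR-27b by 0.03. In signal, miR-27a was 1.43 times miR-27b on the tumour array and 2.05 times on the normal array. For miR-23a over miR-23b the same quotient was 1.37 on the tumour array and 1.36 on the normal array. The probes of miR-27a have 16 and 17 bases and those of miR-27b 17 and 18, while the copies of miR-23 have probes of equal length. The quotients of miR-27 and miR-23 are therefore not alike in probe length. Probes also differ in brightness, so these quotients rank signals and not amounts of RNA. A change of the quotient between arrays is still a change within the same probes.

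miR-24, the member that both clusters encode, was slightly lower on the tumour array after scaling. The longer probe had scaled spots of 2.13 to 2.20 on the tumour array and of 2.22 to 2.61 on the normal array. Its shorter probe averaged 1.44 ± 0.05 on the tumour array and 1.71 ± 0.07 on the normal array (SD, n = 10 spots each). Its log2 ratio was -0.22 (spot SE 0.02), 1.17-fold lower, and all 18 matched spot pairs lay below 0, while without scaling it was 0.70. The scaled ratio lay 0.03 from miR-27b and 0.58 from miR-27a, with a spot SE of 0.02 on each difference. It lay -0.29 from miR-23a and -0.27 from miR-23b, again with a spot SE of 0.02 on each. In ratio miR-24 thus lay beside miR-27b, but apart from both copies of miR-23.

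**Figure D1:**
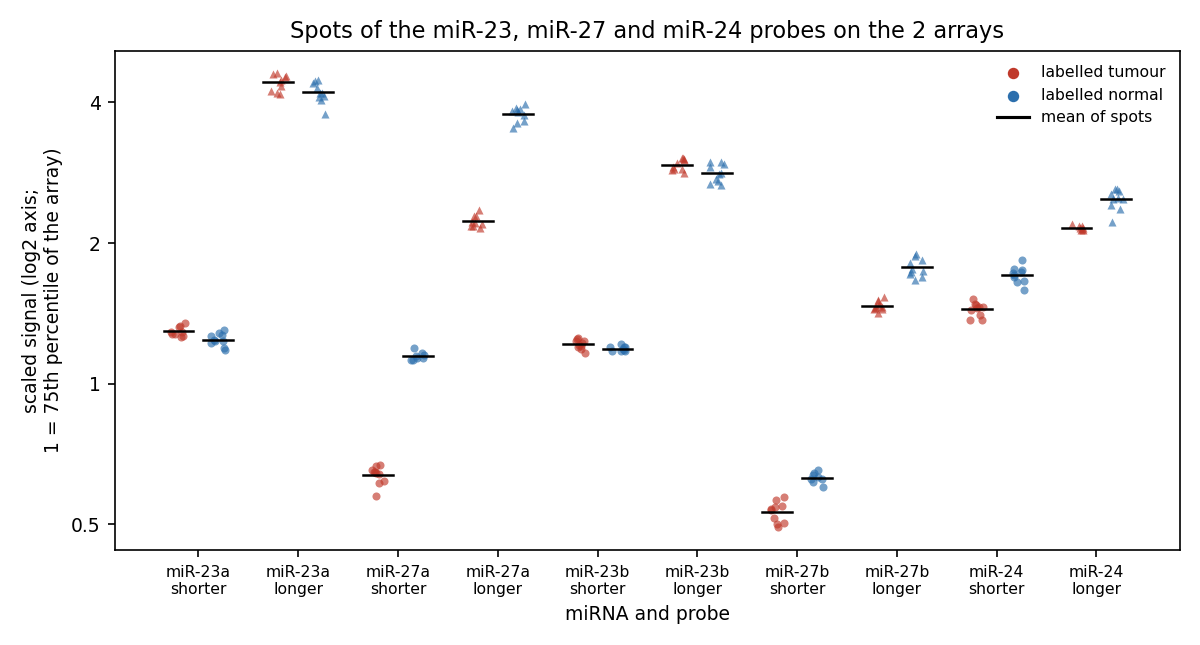
Scaled signal of each spot (vertical log2 axis, where 1 is the 75th percentile of the array) for the shorter probe (circles) and longer probe (triangles) of each member, with the tumour array left and the normal array right; horizontal bars are means of spots. The spots of both miR-27a probes on the tumour array lie wholly below those on the normal array, while the spots of miR-23a and of miR-23b overlap between the arrays.

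In neither cluster did the 2 miRNAs made from that cluster alone have the same ratio. In the a cluster miR-27a lay -0.87 from miR-23a (spot SE 0.02), a 1.83-fold gap. In the b cluster miR-27b lay -0.30 from miR-23b (spot SE 0.02), a 1.23-fold gap. As a share of the signal of the pair, miR-27a gave 33.4% of miR-23a plus miR-27a on the tumour array and 47.5% on the normal array. miR-27b gave 32.5% of miR-23b plus miR-27b on the tumour array and 37.4% on the normal array. The mean ratio over miR-23 and miR-27 was -0.37 for the a cluster and -0.11 for the b cluster. With miR-24 counted in both, the mean was -0.32 for the a cluster and -0.15 for the b cluster. In the measured ratios the gap between the clusters came from miR-27, since miR-23a lay 0.02 above miR-23b. Signal of either copy reaching the probes of the other could have narrowed the differences between copies, which was not tested.

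To place these gaps, all measured miRNAs that match 1 gene each in the RefSeq table and lie on 1 strand within 10000 bases of each other were paired, a rule chosen after the values were seen. There were 15 such pairs, 13 of them without a member, from 61 miRNAs matched to 1 gene. Some miRNAs are in more than 1 of the pairs, such as miR-106b, miR-25 and miR-93, so the pairs are not independent. The table is not complete, so a miRNA matched to 1 gene here can have further copies. In the 13 pairs the 2 log2 ratios differed by 0.11 to 1.75, with a median of 0.35. The gap of 0.87 between miR-23a and miR-27a was exceeded by 2 of the 13, miR-1 with miR-133a (1.19) and miR-133b with miR-206 (1.75), both pairs of muscle miRNAs. The gap of 0.30 between miR-23b and miR-27b was exceeded by 8 of the 13.

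Pairs of paralogs were set beside the copies in the same way. Of 22 listed pairs of similar miRNAs, 14 were measured on both arrays, and the 2 log2 ratios of a pair differed by 0.01 to 1.92, with a median of 0.51. The difference of 0.02 between miR-23a and miR-23b was among the narrowest: only miR-26a with miR-26b (0.01) and miR-30a with miR-30e (0.01) were narrower, and let-7a with let-7c (0.06) and miR-133a with miR-133b (0.12) came next. The difference of 0.55 between miR-27a and miR-27b lay in the middle, with 7 pairs narrower and 7 wider. Its neighbours were miR-103 with miR-107 (0.22) and miR-200b with miR-200c (0.29) below, and miR-125a-5p with miR-125b-5p (0.73) and miR-200a with miR-141 (0.79) above. The listed pairs were not matched for how alike their probes are, so signal reaching the other probe of a pair can differ between pairs.

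**Figure D2:**
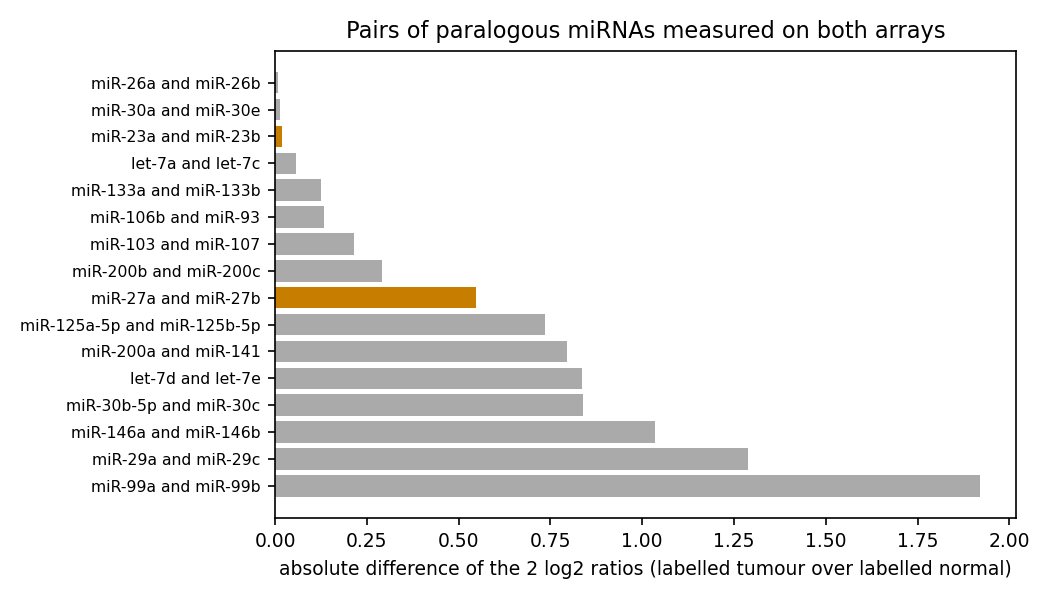
Absolute difference of the 2 log2 ratios (labelled tumour over labelled normal) in each pair of paralogs measured on both arrays, with narrow pairs at the top and the 2 pairs of members in orange. The bar of miR-23a and miR-23b ends at 0.02 and that of miR-27a and miR-27b at 0.55, on an axis that reaches 1.92 for miR-99a and miR-99b.

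The members were among the brighter miRNAs on both arrays. By signal, miR-23a ranked 3 of 350 on the tumour array and 3 on the normal array. miR-23b ranked 9 on the tumour array and 10 on the normal array, and miR-24 ranked 11 on the tumour array and 9 on the normal array. miR-27a ranked 17 on the tumour array and 5 on the normal array, the widest move of the 5. miR-27b ranked 21 on the tumour array and 15 on the normal array. On the tumour array the miRNAs next above miR-23a were miR-1 and miR-133b, and those next below miR-27b were miR-29b and miR-16. On the normal array, miR-21 and miR-205 stood next above and miR-206 and miR-133b next below.

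The order of the 5 signals depended on the probe read. Adding 1 base to the probe raised the mean signal of miR-23a 3.41-fold on the tumour array and 3.38-fold on the normal array. For miR-23b the same step was 2.42-fold on the tumour array and 2.38-fold on the normal array. For miR-24 it was 1.497-fold on the tumour array and 1.451-fold on the normal array. For miR-27a it was 3.49-fold on the tumour array and 3.29-fold on the normal array, and for miR-27b 2.76-fold and 2.82-fold. By the longer probes the order on the tumour array was miR-23a, miR-23b, miR-27a, miR-24 and miR-27b, with miR-27a (2.23 ± 0.07) and miR-24 (2.16 ± 0.02) within the spread of their spots. By the shorter probes miR-24 (1.44) came first, then miR-23a (1.30), miR-23b (1.21), miR-27a (0.637) and miR-27b (0.531). Both orders set miR-27a beside probes that were 1 base longer than its own. Among probes of 17 bases on the tumour array, miR-27a (2.23) came first, then miR-24 (1.44), miR-23a (1.30), miR-23b (1.21) and miR-27b (0.531). On the normal array the longer probes gave miR-23a (4.203), miR-27a (3.78), miR-23b (2.83), miR-24 (2.48) and miR-27b (1.77). Among probes of 17 bases miR-27a (3.78) came first there too, with miR-24 (1.71) next.

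As a share of the summed signal of all miRNAs, the 5 members gave 13.7% on the tumour array and 15.3% on the normal array. miR-23a gave 4.26% on the tumour array and 3.96% on the normal array, and miR-23b gave 3.10% on the tumour array and 2.92% on the normal array. miR-27a gave 2.13% on the tumour array and 3.58% on the normal array, while miR-27b gave 1.49% on the tumour array and 1.75% on the normal array. miR-24 gave 2.68% on the tumour array and 3.05% on the normal array. Without miR-24, the a cluster gave 6.39% on the tumour array and 7.54% on the normal array, and the b cluster gave 4.59% on the tumour array and 4.67% on the normal array. The a cluster thus held 58.2% of the signal of the 4 copies on the tumour array and 61.8% on the normal array.

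These shares move with the few brightest miRNAs in the sum. The skeletal muscle list gave 28.9% of the signal on the tumour array and 4.59% on the normal array, and the shares of miR-21 are given above. With the muscle list left out of the sum, the share of the 5 members was higher on the tumour array, at 19.2% against 16.0% on the normal array. With both the muscle list and miR-21 left out, the shares were 19.9% on the tumour array and 21.3% on the normal array. The share of miR-27a was lower on the tumour array under each of these sums, at 3.001% against 3.75% on the normal array without the muscle list, and at 3.12% against 4.996% on the normal array without both.

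Set beside all measured miRNAs, the members lay near the centre. Of the 5, 0 were at least 2-fold apart between the arrays, where 35.3% of the 85 measured miRNAs were, 12.9% higher and 22.4% lower on the tumour array. The 2-fold limit is a rule of size and not a test. Of the 5 members, 2 had ratios above 0 and 3 below, against 32 and 53 of the 85. Their median was -0.22, against -0.46 for the 85. miR-23a, miR-23b, miR-24 and miR-27b ranked 30, 32, 37 and 39 of 85 from the highest ratio, and miR-27a ranked 61. The measured miRNAs nearest to the members' median in log2 ratio, over these 2 arrays alone, were the keratinocyte miRNA miR-203 (-0.24), miR-107 (-0.15) and miR-98 of the let-7 family (-0.30).

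**Figure D3:**
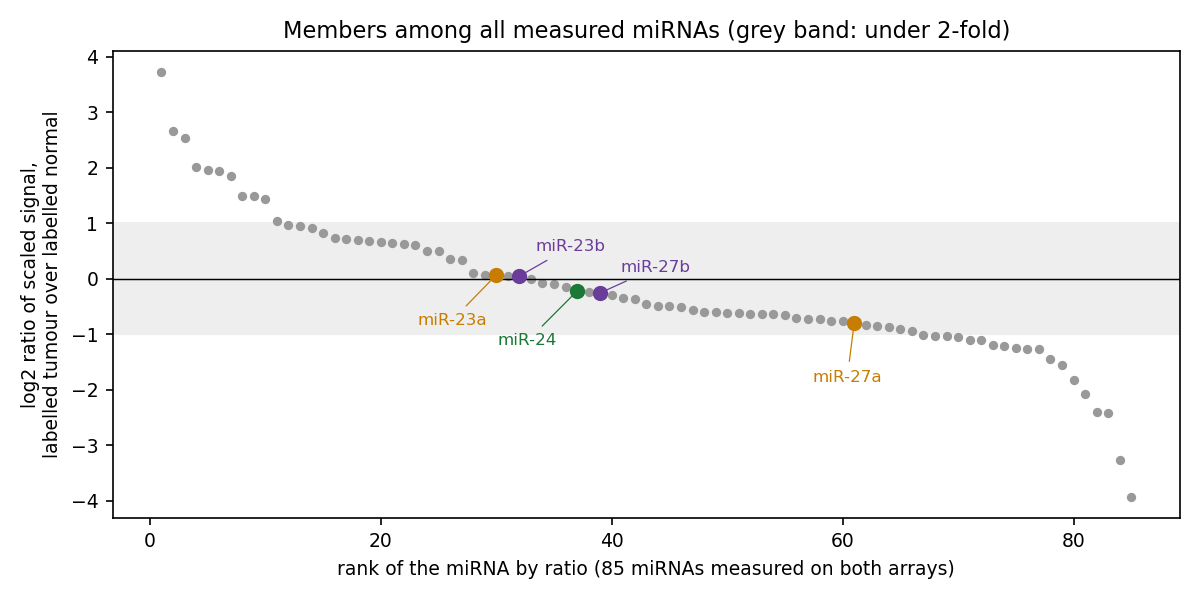
Log2 ratio of scaled signal, labelled tumour over labelled normal (vertical axis), of the 85 miRNAs measured on both arrays, ordered from the highest ratio to the lowest (horizontal axis), with members of the a cluster in orange, of the b cluster in purple and miR-24 in green. All 5 members lie in the grey band of ratios under 2-fold, 4 of them between ranks 30 and 39 and miR-27a at rank 61.

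Other miRNAs linked to vessel growth were more often lower on the tumour array after scaling, and more often higher without it. Of a list of 20, without the members, 19 were on the array and 13 were measured on both arrays, with 3 above 0 and 10 below and a median of -0.65 beside the -0.46 of all 85. Without scaling 10 were above 0 and 3 below, with a median of 0.28 beside 0.46 for all 85. After scaling, 3 of the 13 were at least 2-fold lower on the tumour array, a share close to the 22.4% of all 85. These were miR-221 (-2.43), which represses KIT in human endothelium together with miR-222, the hypoxia miRNA miR-210 (-1.11) and miR-15b (-1.05). The ratios of miR-221 and miR-210 each rest on 1 probe near the limit of detection. Over all their probes the mean scaled levels on the tumour array were 0.026 for miR-221 and 0.043 for miR-210. The dimmest detected probe there was at 0.035. After scaling, 1 of the 13 was at least 2-fold higher, beside 12.9% of all 85: miR-378 (1.85), which is also in the muscle list. Without scaling 2 of the 13 were at least 2-fold higher, miR-378 and miR-126, beside 32.9% of the 85. Only miR-221 of the 13 was then at least 2-fold lower, beside 5.88% of the 85. miR-126, the defining endothelial miRNA, was at 0.68 after scaling, above every member, and miR-126* was detected on neither array.

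Markers of other cell types moved between the arrays too. Of the 7 muscle miRNAs listed, 5 were measured and all 5 were above 0, with a summed scaled level of 19.4 on the tumour array and 3.16 on the normal array, while miR-499 and miR-208 were detected on neither. All 7 epithelial miRNAs listed were measured and all were below 0 (5 of the 7 turned above 0 without scaling), with summed scaled levels of 3.93 on the tumour array and 6.69 on the normal array, so epithelial markers were detected on both. Of 4 leukocyte miRNAs on the array, 3 were measured, 1 above 0 and 2 below, with sums of 0.336 on the tumour array and 0.884 on the normal array. miR-143 of smooth muscle was at 0.82 and the red blood cell miRNA miR-451 at 1.04. The part of these cell types in the ratios of the members was not tested.

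The passenger strands that were read for these hairpins gave no measurable signal, while those of miR-23b and miR-27b were not read. The array carried 16 probes for miR-23a*, miR-27a*, miR-24-1* and miR-24-2*, and 0 were detected. Their mean signals ran from -5.16 to 10.4 intensity units on the tumour array and from -5.63 to 2.97 on the normal array, where the dimmest detected probe was at 18.3 units on the tumour array and 18.2 on the normal array. Of their spots, 0 of 78 on the tumour array and 0 of 79 on the normal array were well above background. These strands, which differ between the 2 copies of miR-24, therefore gave no reading of which copy its signal came from.

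Under the 17 alternative processing settings the gaps that separate miR-27a from the other members, and miR-23 from miR-27, kept their direction. The members' common level did not. Part of this was fixed in advance. Another scale factor cannot alter a difference between members, and the filters on dim probes removed no member probe. For the members the deposited value table repeats the total gene signal. Only the remaining alternatives could have moved these gaps. Over 17 alternatives the ratio of miR-27a lay between -0.60 and -0.45 from that of miR-27b, and between -0.91 and -0.81 from that of miR-23a. In all 17, miR-27a had the lowest ratio of the 5 and miR-23a and miR-23b the highest. miR-24 and miR-27b kept no fixed order: their difference of 0.03 ran from -0.0068 to 0.086 and was below 0 in 2 of the 17, quantile normalization and the dimmest detected probe. The median of the members ran from -0.43 with the software's total gene signal to 0.70 without scaling, and was above 0 in 3 of the 17. Without scaling all 5 members were above 0, with miR-23a at 0.99 and miR-23b at 0.97, just under 2-fold. With the total gene signal miR-27a was at -0.99, just under 2-fold in the other direction.

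**Figure D4:**
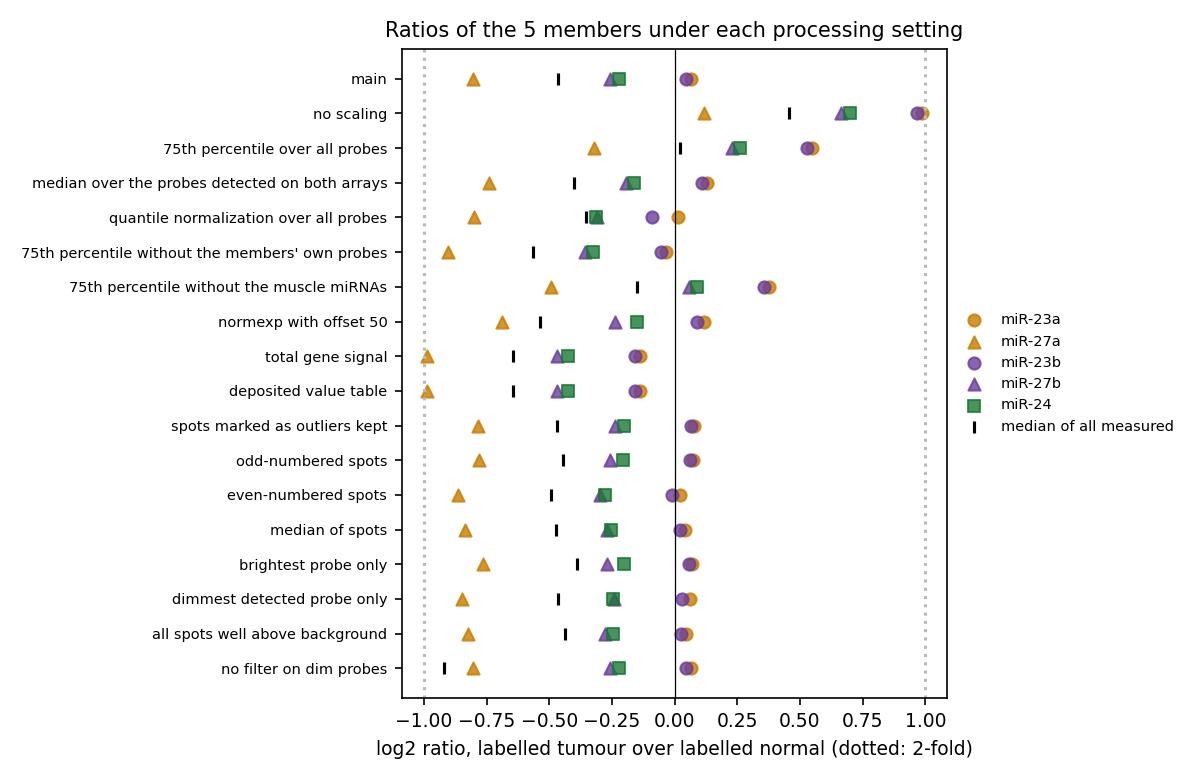
Log2 ratio, labelled tumour over labelled normal (horizontal axis), of the 5 members under the reported setting (top row) and 17 alternatives, with the median of all measured miRNAs as a black tick and 2-fold as dotted lines. The members shift together from row to row, with miR-27a (orange triangles) always leftmost of the 5 and miR-23a and miR-23b (circles) always rightmost.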

How the data were processed

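Cy3-labelled RNA was hybridised to Agilent 1-colour miRNA arrays, 1 per group. The deposited intensity values come, per the file headers, from Agilent Feature Extraction 10.5.1.1, which subtracted background and did not normalize between arrays. The labels name a labelling kit for messenger RNA amplification. The labelling of miRNA is not given there. The deposited value table holds the software's total gene signal as intensity, with column medians of 1.70 for the tumour array and 1.32 for the normal array. For the members it equals that signal exactly, on a linear scale, so no centring or ratio was applied.

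Spots marked as outliers were left out (248 of 7000 on the tumour array, 336 on the normal array), and 0 spots were saturated. The other spots of a probe were averaged. A probe was detected where over 50% of its spots were well above background. Signals were divided by the 75th percentile of the probes detected on both arrays, floored at the dimmest detected probe, and log2 transformed. Probe log2 ratios were averaged within a miRNA. A share is the mean over a miRNA's probes, negative values set to 0, over the sum for all 350 miRNAs. Precision is limited by the number of arrays. Among detected probes the median CV between spots was 5.20% on the tumour array and 6.33% on the normal array.

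All 5 members are named. Others are named by fixed rules: passenger strands, listed paralogs nearest in difference, the 3 miRNAs nearest in ratio, the 2 next above and below in signal, and up to 4 listed vessel miRNAs with the largest ratio. Neighbouring gene pairs, miR-99a with miR-99b, miR-126 and cell type markers beyond these were named after their values were seen. The members, lists and alternatives were chosen with earlier results of these data known. Alternatives used other scalings, normexp from limma 3.58.1 with an offset of 50, and other summaries and filters. Shares without muscle miRNAs or miR-21 were added after seeing the data. Steps were tested on simulated data. The array's grid names build rn4, while all coordinates are of GRCr8, from a match of the probes to the RefSeq miRNAs.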

Additional observations from a re-analysis of the deposited data

How the results depend on the processing

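No paired analysis was possible because there is 1 array per group. No member reached 2-fold under any of the 17 listed alternatives, though miR-27a came to -0.99 with the total gene signal. miR-23a minus miR-23b (0.01 to 0.10), miR-27a minus miR-27b, miR-27a minus miR-23a and miR-27b minus miR-23b kept their sign in all of them. miR-24 minus miR-27b did not, at -0.0068 with quantile normalization and -0.0038 with the dimmest detected probe. Alternatives that change only the scale factor or the filter on dim probes could not alter a difference between members. The median log2 ratio of the members, -0.22 as reported, was 0.70 without scaling, 0.26 with the 75th percentile over all probes, 0.089 without the muscle miRNAs in the percentile, -0.32 without the members' own probes, -0.31 with quantile normalization, -0.15 with normexp, and -0.43 with both the total gene signal and the deposited value table. The median of all measured miRNAs moved by 0.92, 0.48 and 0.31 under the first 3 of these, and by -0.10, 0.11, -0.07 and -0.18 under the others in that order. The split of all calls at 2-fold, 11 higher and 19 lower, was 28 and 5 without scaling, 23 and 7 with the percentile over all probes, 18 and 8 without the muscle miRNAs, and 3 and 8 with normexp. With no filter on dim probes all 350 miRNAs were set to a ratio and 8.29% were called.

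The summed share of the members, 13.7% on the tumour array and 15.3% on the normal array, was 12.7% on the tumour array and 14.4% on the normal array with the brightest probe. It was 16.2% on the tumour array and 16.8% on the normal array with the dimmest detected probe, and 11.4% on the tumour array and 13.7% on the normal array with quantile normalization. Normexp turned the order, with 9.12% on the tumour array and 8.01% on the normal array, and the cause was not tested. Of the sums added after seeing the data, leaving out the muscle list also turned it, with 19.2% on the tumour array and 16.0% on the normal array. Leaving out both the list and miR-21 gave 19.9% on the tumour array and 21.3% on the normal array, and leaving out miR-21 alone gave 14.03% on the tumour array and 20.0% on the normal array. Of 235 ratios and shares of single members under these settings, 95 moved by more than the SD of their spots. Signal over background limited none of the member values, since the dimmest member probe was at 279 intensity units on the tumour array and 174 on the normal array. It leaves the passenger strands unmeasured.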
